A study of Homo sapiens with 3 samples.

Results

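MAPK feedback genes, 10 genes that the RAS to ERK pathway is known to induce and most of which act back on it, were followed in ribociclib-treated CAMA-1 spheroids: the dual-specificity phosphatases DUSP4, DUSP5 and DUSP6, the Sprouty genes SPRY1, SPRY2 and SPRY4, the Sprouty-related genes SPRED1 and SPRED2, the ETS factor ETV4 and PHLDA1. They were chosen by symbol as genes known to follow ERK output, and all 10 were found among the 22499 gene symbols of the count tables. CAMA-1 cells are an established breast cancer line that expresses the estrogen receptor. The sensitive lineage carried mVenus, and the ribociclib-resistant lineage, derived from it by continuous growth in the drug, carried mCherry. Spheroids of 2000 plated cells that were 100% sensitive, 50% sensitive and 50% resistant, or 100% resistant were grown for 11 days with DMSO and 1 µM ribociclib, an inhibitor of the cell cycle kinases CDK4 and CDK6, so that no group was free of drug. One library was made per condition, which gave 4 populations: sensitive monoculture (3329 annotated cells), sensitive coculture (2059), resistant coculture (6292) and resistant monoculture (7557).

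ERK, the last kinase of the cascade that runs from growth factor receptors through RAS, RAF and MEK, switches on the genes of its own inhibitors. DUSP6 removes the activating phosphates of ERK in the cytoplasm, and DUSP4 and DUSP5 do so in the nucleus. Sprouty and SPRED proteins act further up, where the signal passes from receptors to RAS and RAF, and SPRED proteins bring the RAS inactivator neurofibromin to the membrane. ETV4 is a transcription factor of the PEA3 group that ERK signalling induces, and PHLDA1 is an intracellular protein with a pleckstrin homology-like domain that growth factors and estrogen are known to induce. Because the feedback genes depend on ERK activity, their RNA is widely used as a readout of it, and their proteins lower the activity that they report.

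The levels below are counts of unique molecular identifiers (UMIs, 1 for each captured RNA molecule) summed over the cells of a population and scaled to counts per 1e6 UMIs of the population (CPM). The tags were read at the 3′ end of each RNA, so that a longer transcript does not give more counts. Each condition had 1 library and cells are not replicates, so no test was possible and no p-value is given. The intervals are 95% intervals for counting error only. The summed populations held between 70896822 and 270891547 UMIs, and the median cell between 27622 and 35443. Luminal markers were present (7 of 7 at 10 CPM or more in each population, summed levels from 7659 to 9605 CPM), while summed leukocyte, fibroblast and endothelial markers stayed at or under 3.62 CPM. Of the annotated cells, 7 to 17 barcodes were shared between any 2 libraries. The deposited cell cycle phase put 89.0% of sensitive monoculture cells in G1, against 55.3% of sensitive coculture, 49.7% of resistant coculture and 50.0% of resistant monoculture cells, so members were also compared in G1 cells alone. Those G1 cells numbered 2963, 1138, 3125 and 3781 in the same order. The median mitochondrial share was 21.2% in the G1 cells of the sensitive monoculture, 19.2% in cocultured sensitive cells, 16.2% in cocultured resistant cells and 16.7% in the resistant monoculture.

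The genes were placed on GRCh37. DUSP5 lies at chr10:112257665-112271291, DUSP6 at chr12:89741012-89746278, SPRY1 at chr4:124317950-124324915, SPRY2 at chr13:80910111-80915261, SPRY4 at chr5:141689992-141706020, SPRED1 at chr15:38545037-38649450, SPRED2 at chr2:65537985-65659771, ETV4 at chr17:41605212-41656988 and PHLDA1 at chr12:76419227-76425556. DUSP5, SPRY1 and SPRED1 are on the plus strand and the other members, DUSP4 included, on the minus strand. RefSeq promoters (GRCh38.p14, 300 bases each) were matched for 7 members with 11 start sites, and each sequence was found exactly once in GRCh37. The stretches below are the 250 bases before the start of DUSP6 (chr12:89746279-89746528, minus strand) and of PHLDA1 (chr12:76425557-76425806, minus strand), 2 members that separated the lineages and that lie on the same chromosome. Both are printed 5′ to 3′ in lower case, and capitals mark a match of the ETS family motif CCGGAA on either strand.
DUSP6: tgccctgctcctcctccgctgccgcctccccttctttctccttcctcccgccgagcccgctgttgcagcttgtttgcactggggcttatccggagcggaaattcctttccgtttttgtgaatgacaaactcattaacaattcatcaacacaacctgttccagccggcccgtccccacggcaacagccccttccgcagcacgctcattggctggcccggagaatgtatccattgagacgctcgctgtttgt
PHLDA1: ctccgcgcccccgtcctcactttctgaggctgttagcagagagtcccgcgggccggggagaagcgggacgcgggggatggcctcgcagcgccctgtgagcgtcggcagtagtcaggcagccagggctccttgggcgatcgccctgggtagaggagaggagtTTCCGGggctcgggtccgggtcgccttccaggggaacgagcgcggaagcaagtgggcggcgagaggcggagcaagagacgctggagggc
The PHLDA1 stretch held 1 such match, whose first base lay 89 bases before the start, and the DUSP6 stretch held none. Over the 300-base windows, CCGGAA was found on either strand in 3 of the 11 member promoters (1 each of SPRY1, SPRY2 and PHLDA1), and in 17.2% of all 35116 promoters of the table. The longer form CCGGAAGT, which contains CCGGAA, was found in 0 of the 11 and in 4.14% of all. The AP-1 motif TGANTCA was found in 1 promoter, of SPRED2, against 7.71% of all, and the CRE motif TGACGTCA in 0 against 1.85%. These are matches of letters, not binding sites.

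Among the phosphatases, DUSP6 separated the 4 populations most widely. In G1 cells its level was 4.96 CPM in the sensitive monoculture (interval 4.49 to 5.46, 410 UMIs), 2.14 CPM in cocultured sensitive cells (1.70 to 2.67, 79 UMIs), 0.958 CPM in cocultured resistant cells (0.769 to 1.18, 89 UMIs) and 0.490 CPM in the resistant monoculture (0.376 to 0.626, 63 UMIs). The levels stood in this order with no overlap of intervals between neighbours, and the 2 cocultured populations lay between the 2 monocultures. DUSP6 was 10.1-fold lower in resistant than in sensitive monoculture G1 cells (counting interval 7.75 to 13.4), and 2.24-fold lower between the lineages within coculture (1.63 to 3.06). Sensitive G1 cells had 2.31-fold less of it in coculture than in monoculture (1.81 to 2.98), while resistant G1 cells had 1.96-fold more of it in coculture (1.40 to 2.75).

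DUSP5 gave another order. Its G1 level was 13.5 CPM in the sensitive monoculture (12.7 to 14.3), 6.94 CPM in cocultured sensitive cells (6.12 to 7.85), 7.30 CPM in cocultured resistant cells (6.76 to 7.87) and 6.46 CPM in the resistant monoculture (6.03 to 6.91). The sensitive monoculture stood alone above the other populations, whose neighbouring intervals overlapped. DUSP5 was 1.95-fold lower in cocultured than in monocultured sensitive G1 cells (1.70 to 2.24) and 2.09-fold lower in resistant than in sensitive monoculture (1.91 to 2.29). Within coculture the ratio of resistant to sensitive cells was 1.05, and its interval of 0.909 to 1.22 held 1.

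DUSP4 (chr8:29190581-29208201), the most abundant member, differed more between the lineages than between the cultures. The G1 levels were 21.4 CPM in the sensitive monoculture (20.4 to 22.4), 22.0 CPM in cocultured sensitive cells (20.5 to 23.6), 12.7 CPM in cocultured resistant cells (11.97 to 13.4) and 13.9 CPM in the resistant monoculture (13.3 to 14.6). Resistant G1 cells had 0.653 of the sensitive level between monocultures (0.611 to 0.697) and 0.576 of it within coculture (0.526 to 0.631). The ratio of coculture to monoculture was 1.03 in sensitive cells (0.947 to 1.12) and 0.910 in resistant cells (0.845 to 0.980).

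**Figure D1:**
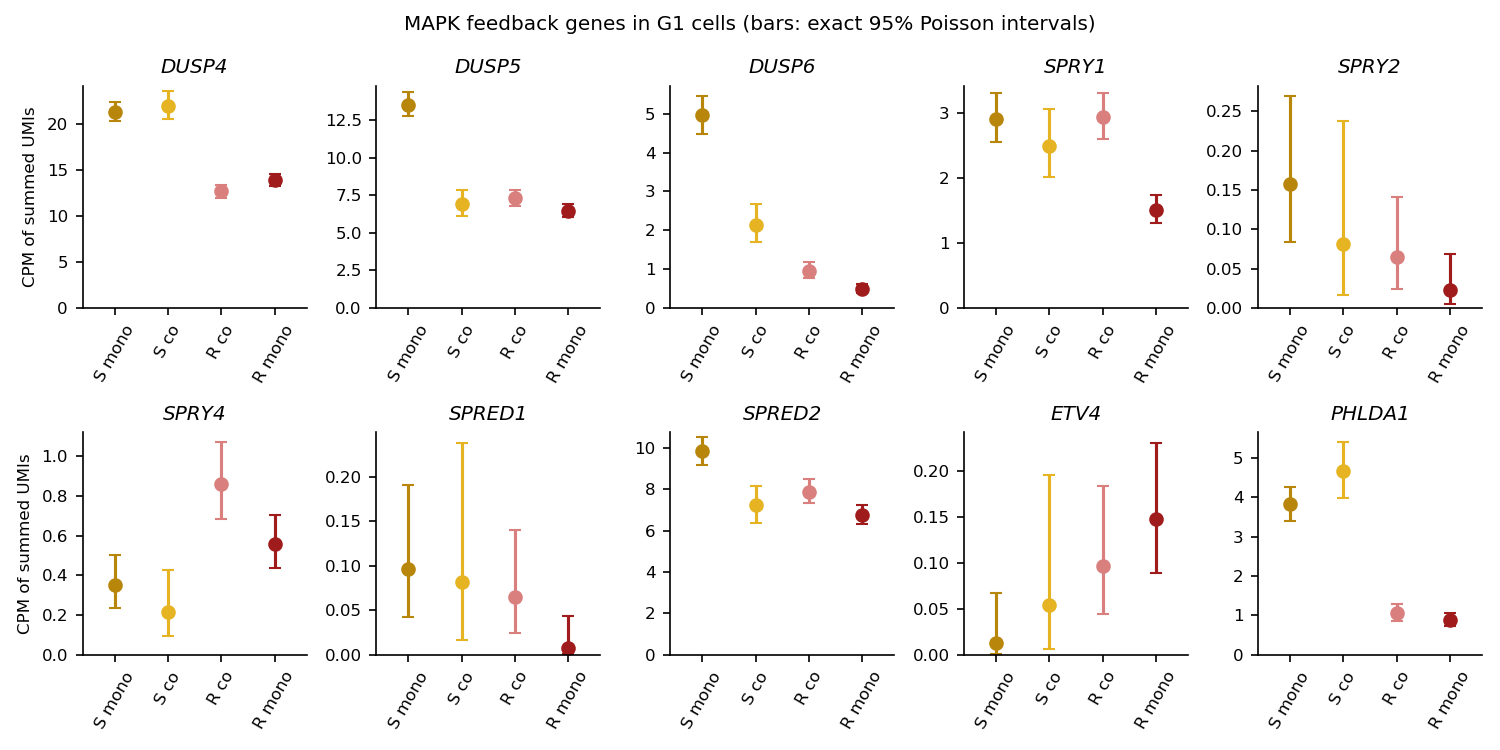
Level of each of the 10 members in G1 cells (vertical axis, CPM of summed UMIs, a scale of its own per gene) in sensitive monoculture (S mono), sensitive coculture (S co), resistant coculture (R co) and resistant monoculture (R mono); points are the 4 population sums and bars exact 95% Poisson intervals. DUSP6 steps down from 4.96 to 0.490 CPM, DUSP5 is high in the sensitive monoculture alone, and DUSP4 and PHLDA1 divide the lineages.

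Of the Sprouty genes, SPRY1 was the best measured. SPRY1 had a G1 level of 2.91 CPM in the sensitive monoculture (2.56 to 3.31), 2.50 CPM in cocultured sensitive cells (2.01 to 3.06), 2.95 CPM in cocultured resistant cells (2.61 to 3.32) and 1.51 CPM in the resistant monoculture (1.30 to 1.74). Here the resistant monoculture was the population that stood apart: it was 1.93-fold lower than the sensitive monoculture (1.59 to 2.35), and resistant cells in coculture had 1.96-fold more than those in monoculture (1.62 to 2.36). In sensitive cells the coculture ratio was 0.857, and its interval of 0.666 to 1.09 held 1. SPRY4 had few UMIs in sensitive cells, with G1 levels of 0.351 CPM (29 UMIs) in monoculture and 0.217 CPM (8 UMIs) in coculture. In resistant cells they were 0.861 CPM (80 UMIs) in coculture and 0.559 CPM (72 UMIs) in monoculture. The resistant to sensitive ratio of SPRY4 was 3.97 within coculture (1.92 to 9.51) and 1.60 between monocultures (1.02 to 2.55). SPRY2 was close to the limit of detection, with 13, 3, 6 and 3 UMIs in the G1 cells of the 4 populations in the same order, at levels from 0.157 CPM down to 0.0233 CPM.

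Of the SPRED genes, SPRED2 was well measured and SPRED1 was not. SPRED2 stood at 9.85 CPM in the sensitive monoculture G1 cells (9.19 to 10.6), 7.24 CPM in cocultured sensitive cells (6.40 to 8.16), 7.90 CPM in cocultured resistant cells (7.34 to 8.49) and 6.78 CPM in the resistant monoculture (6.34 to 7.25). The sensitive monoculture was again the highest population, 1.36-fold above sensitive coculture (1.18 to 1.57) and 1.45-fold above resistant monoculture (1.32 to 1.60). In resistant cells the coculture level was 1.16-fold higher than in monoculture (1.05 to 1.29). SPRED1 had 8, 3, 6 and 1 G1 UMIs, from 0.0967 CPM in the sensitive monoculture to 0.00777 CPM in the resistant monoculture.

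ETV4 was nearly silent, with 1 and 2 UMIs in the G1 cells of the sensitive lineage (monoculture and coculture) and 19 and 9 in those of the resistant lineage. Over all phases it had 3 UMIs in each sensitive population, or 0.0312 CPM in monoculture and 0.0423 CPM in coculture, against 45 and 29 UMIs in the resistant ones, or 0.166 and 0.145 CPM. The ratio of resistant to sensitive monoculture over all phases was 5.33, with an interval of 1.71 to 26.8. Within coculture the G1 ratio of ETV4 was 1.79, and its interval of 0.370 to 17.0 held 1. ETV4 and SPRY4 had few UMIs in sensitive cells, so no contrast with the other members is read from them.

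PHLDA1 divided the lineages in both kinds of culture. Its G1 level was 3.82 CPM in the sensitive monoculture (3.41 to 4.27), 4.67 CPM in cocultured sensitive cells (3.99 to 5.42), 1.07 CPM in cocultured resistant cells (0.866 to 1.30) and 0.878 CPM in the resistant monoculture (0.724 to 1.06). Resistant cells had 4.35-fold less between monocultures (3.50 to 5.44) and 4.38-fold less within coculture (3.40 to 5.67). The coculture ratio was 1.22 in sensitive cells (1.01 to 1.48) and 1.21 in resistant cells (0.917 to 1.60). In sensitive cells it was the sole one of the 6 members with at least 50 UMIs whose interval lay above 1 in coculture, by a margin too small to be read. With only cells under 15% mitochondrial share, its log2 ratio in sensitive cells was -0.38 in place of 0.23.

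Summed over the 10 genes, the G1 level was 57.1 CPM in the sensitive monoculture (55.4 to 58.7), 45.9 CPM in cocultured sensitive cells (43.8 to 48.2), 33.9 CPM in cocultured resistant cells (32.8 to 35.1) and 30.8 CPM in the resistant monoculture (29.9 to 31.8). DUSP4 made the largest share of each sum. In these pools of cells, fewer cells with the RNA and less RNA per cell cannot be told apart from the sum alone. In G1 cells with their full depth, a DUSP6 UMI was found in 12.5% of the sensitive cells from monoculture (exact binomial interval 11.3 to 13.7) and 6.50% of those from coculture (5.14 to 8.10). The resistant cells had one in 2.78% of cells in coculture (2.24 to 3.42) and in 1.64% in monoculture (1.26 to 2.10). After thinning each cell to 5000 UMIs these shares were 2.50%, 1.14%, 0.480% and 0.212%. If the same UMIs were spread over the cells by depth alone, 12.8%, 6.69%, 2.80% and 1.65% of cells would hold one, which is close to the shares found. For PHLDA1 the share was 7.49% in sensitive monoculture and 10.6% in sensitive coculture, against 10.1% and 13.9% by depth alone, and up to 6 UMIs were found in 1 cell. For DUSP4 it was 38.3% and 41.1%, against 43.8% and 49.9%, with up to 11 UMIs in 1 cell. DUSP4 and PHLDA1 UMIs thus fell in fewer cells than depth alone would give, while those of DUSP6 and SPRED2 (23.8% found, 23.7% by depth, in the sensitive monoculture) did not. The counting intervals take each UMI as independent, so those of DUSP4 and PHLDA1 are likely too narrow. No cell type in these libraries is known to lack the members, so a share that free RNA alone would give was not measured.

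To set the members beside the rest of the transcriptome, log2 ratios were taken after adding 1 CPM, for each gene that reached 50 UMIs over the pair of populations, and a gene was counted as higher or lower when it differed at least 1.5-fold on that scale. The added 1 CPM shrinks the ratios of low genes, so that DUSP6 stood at -1.999 on this scale between monocultures where its plain ratio was 10.1-fold lower. Each of the 4 comparisons shares a population with 2 of the others. Between monocultures in G1 cells, resistant over sensitive, 7 members could be compared: 4 were lower (DUSP5, DUSP6, SPRY1 and PHLDA1), 0 were higher, and the median was -0.64 against -0.11 over all genes. SPRY4, 1 of the 7, had 29 UMIs in sensitive and 72 in resistant cells (30 and 137 over all phases). It met the minimum of 50 UMIs only through the population where it was high. Nothing is read from its place in the counts or in the medians, which include it. The background was 13.2% of 12478 genes lower and 5.55% higher. DUSP6 had a lower ratio than all but 0.657% of genes and PHLDA1 than all but 2.09%. With trimmed mean (TMM) scaling every plain ratio of this comparison was higher by 0.137 in log2, and SPRY1, the median member, stood at -0.55, short of the 1.5-fold line. With only cells under 15% mitochondrial share DUSP6 stood at -2.20 and PHLDA1 at -1.94, while DUSP4 was at -0.32 in place of -0.58, SPRY1 at -0.30 in place of -0.64 and SPRED2 at -0.10 in place of -0.48. Over all phases 4 members were lower and 0 higher with a median of -0.72, against a background of 12.5% lower and 6.65% higher. With only cells under 15% mitochondrial share 2 were lower over all phases (DUSP6 and PHLDA1), and the median was -0.38.

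Within coculture, resistant over sensitive in G1 cells, 3 of 7 members were lower (DUSP4, DUSP6 and PHLDA1) and 1 was higher (SPRY4), with a median of 0.06 against 0.00 over all genes. SPRY4, at 0.61, had 8 UMIs in sensitive and 80 in resistant cells. It thus met the minimum of 50 UMIs only through the population where it was high, and nothing is read from its place in the count or the median. The median of 0.06, the value of DUSP5, depends on counting SPRY4 and is not read either. Without SPRY4 the median would lie between DUSP6 at -0.68 and DUSP5 at 0.06. The background was 4.67% of 12101 genes lower and 2.50% higher. PHLDA1 lay lower than all but 0.554% of genes, DUSP4 than all but 2.88% and DUSP6 than all but 3.42%. Over all phases 1 member was lower (PHLDA1) and 0 higher, against 4.09% and 2.04% of genes, with DUSP4 and DUSP6 just inside the line at -0.56 each. In G1 cells under 15% mitochondrial share DUSP4 stood at -0.55, short of the 1.5-fold line, SPRY1 moved from 0.18 to 0.63, past it, and SPRY4 had too few UMIs to be compared, while DUSP6 was at -0.81 and PHLDA1 at -1.70.

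In sensitive G1 cells, coculture over monoculture, 2 of 6 members were lower (DUSP5 at -0.87 and DUSP6 at -0.92) and 0 were higher, with a median of -0.28 against -0.07 over all genes. The background was 5.07% of 11977 genes lower and 3.81% higher. DUSP6 lay lower than all but 1.09% of genes and DUSP5 than all but 1.34%, while DUSP4 at 0.04 and SPRY1 at -0.16 stood inside the bulk. With only cells under 15% mitochondrial share DUSP6 was at -0.97 and DUSP5 at -0.66. With 10% of the sensitive coculture UMIs taken as RNA of resistant cells and removed, they were at -0.86 and -0.90. Over all phases the same 2 members were lower and 0 higher, against 5.91% and 5.13%. In resistant G1 cells, coculture over monoculture, 1 of 7 members was higher (SPRY1 at 0.66) and 0 were lower, with a median of 0.19 against 0.03. In that comparison 0.817% of 12482 genes were higher and 0.0481% lower, so that few genes of any kind differed, and SPRY1 had a higher ratio than 99.6% of genes and DUSP6, at 0.39, than 95.4%. Over all phases 0 members were higher or lower, against 0.661% and 0.0304%. In cells under 15% mitochondrial share SPRY1 stood at 0.48, below the 1.5-fold line.

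**Figure D2:**
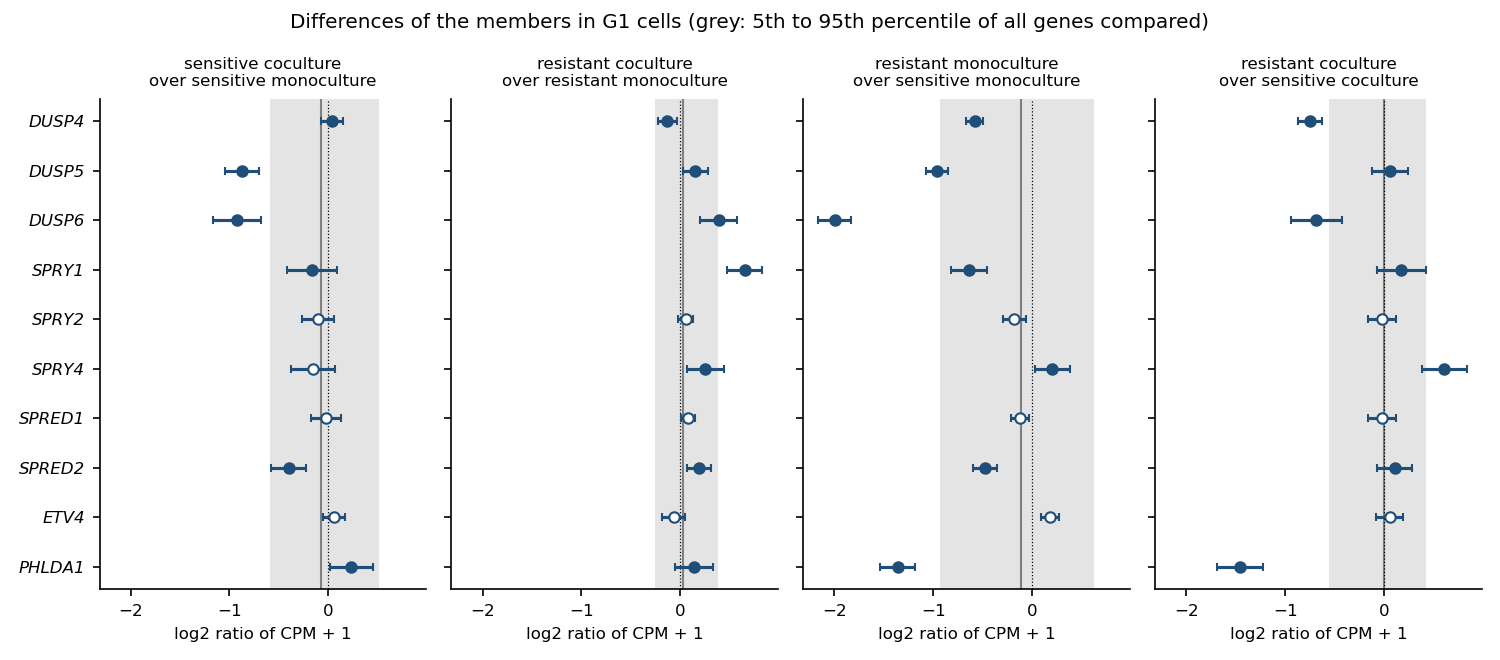
Log2 ratio of CPM + 1 (horizontal axis) of each member in G1 cells in the 4 comparisons; filled points have at least 50 UMIs over the 2 populations, open points fewer, and bars are 95% counting intervals. Grey bands run from the 5th to the 95th percentile of all genes compared, and the grey line is their median; DUSP6 lies outside the band in every panel, above it in resistant cells and below it in the others, and PHLDA1 lies below it in both comparisons of lineages.

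Phase moved the members in different ways, and the deposited phases had been called from other genes. SPRY1 was lower in S and G2M than in G1 cells of all 4 populations. Its G2M level was 0.869 CPM in the sensitive monoculture, 0.826 CPM in cocultured sensitive cells, 1.03 CPM in cocultured resistant cells and 0.534 CPM in the resistant monoculture, or 0.298, 0.331, 0.348 and 0.354 of the G1 level, and each interval lay below 1. The S to G1 ratios of SPRY1 were 0.519, 0.563, 0.388 and 0.500, again with intervals below 1. DUSP5 ran the other way, with G2M to G1 ratios of 1.18 (0.959 to 1.43), 1.25 (1.01 to 1.54), 1.41 (1.26 to 1.58) and 1.60 (1.44 to 1.78). In resistant monoculture that was 10.3 CPM in G2M against 6.46 CPM in G1. Set beside the log2 phase ratios of all genes, SPRY1 lay below their 5th percentile in S and G2M of the resistant coculture and in S of the resistant monoculture. Its other S and G2M sums held between 6 and 32 UMIs. They met the minimum of 50 UMIs only through G1, where SPRY1 was high, so their places are not read. The G2M ratios of DUSP5 lay inside the band from the 5th to the 95th percentile in each population.

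DUSP6 was lower in G2M than in G1 cells of the sensitive lineage, at 0.643 of the G1 level in monoculture (0.398 to 0.987) and 0.413 in coculture (0.221 to 0.723). In the resistant lineage the ratios were 1.03 (0.715 to 1.47) in coculture and 1.16 (0.741 to 1.79) in monoculture, with intervals that held 1. DUSP4 was lower in S than in G1 cells of the sensitive lineage (0.743 in monoculture, 0.702 in coculture), and higher in G2M than in G1 cells of the resistant lineage (1.20 in coculture, 1.27 in monoculture), with intervals that left out 1. Of these DUSP6 and DUSP4 ratios, that of DUSP4 in S of the sensitive coculture lay below the 5th percentile of all genes. DUSP6 had 22 and 15 G2M UMIs in sensitive monoculture and coculture and met the minimum only through G1, so its place there is not read. The other ratios lay inside the band. SPRED2 and PHLDA1 were lower in both cycling phases in sensitive coculture, at 0.744 and 0.774 of the G1 level for SPRED2 and 0.690 and 0.708 for PHLDA1, all inside the band of all genes. In resistant monoculture their intervals held 1 in both phases. The sparse members gave no reading by phase: SPRY2 and SPRED1 had 0 UMIs in S phase cells of the sensitive monoculture, which allows a level of up to 0.454 CPM.

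**Figure D3:**
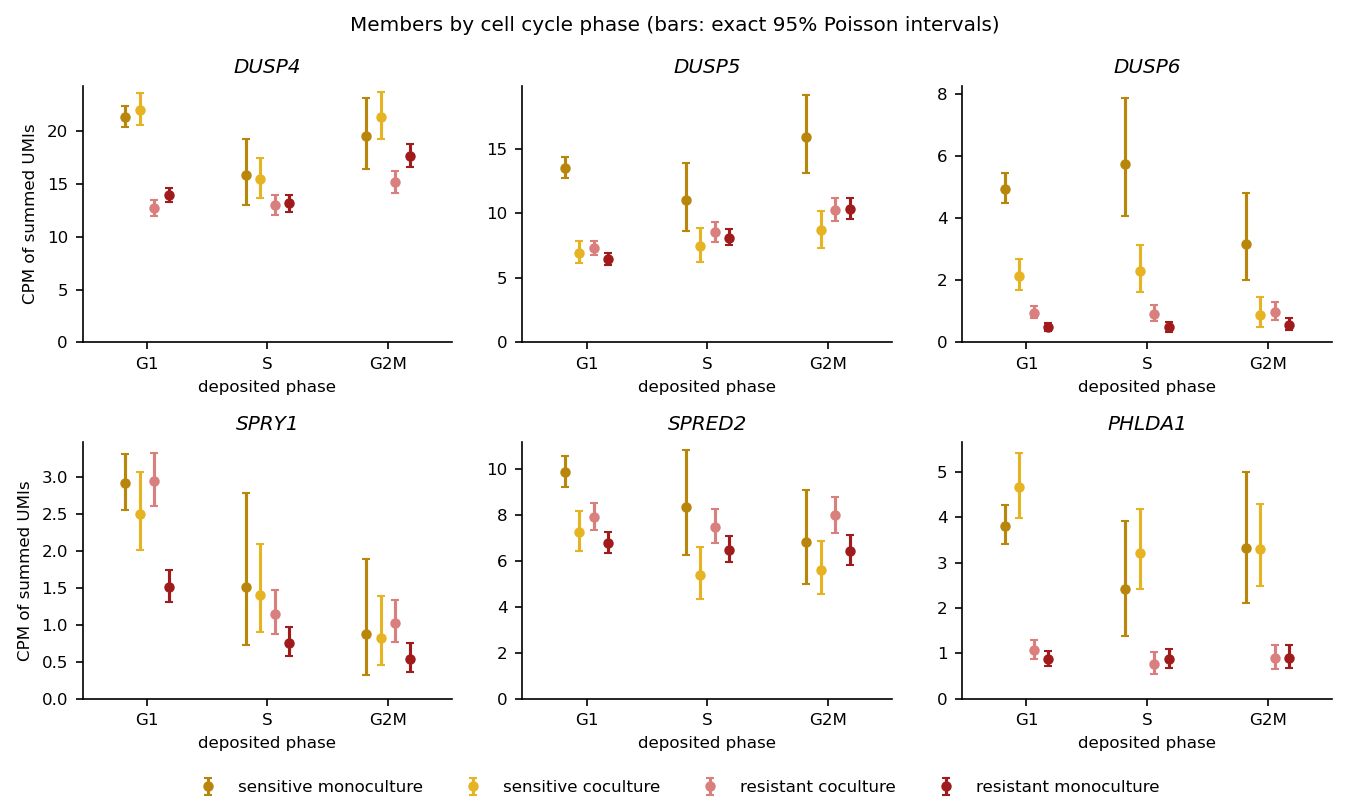
Level (vertical axis, CPM of summed UMIs) of the 6 best measured members in cells of the deposited phases G1, S and G2M, for the 4 populations in colour; bars are exact 95% Poisson intervals. SPRY1 is highest in G1 in each population, DUSP5 is highest in G2M in each, and the lineages stay apart in PHLDA1 in all phases.

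The deposited clusters, which were built from the same counts, show how the members varied inside a population. Clusters of at least 50 cells numbered 5 in monoculture and 3 in coculture for the sensitive lineage, and 9 and 10 for the resistant lineage. DUSP6 ran from 3.92 to 5.45 CPM over the clusters of sensitive monoculture, from 1.57 to 3.62 CPM in cocultured sensitive cells, from 0.315 to 2.17 CPM in cocultured resistant cells and from 0.252 to 1.55 CPM in the resistant monoculture. The lowest cluster of the sensitive monoculture thus lay above the highest of either resistant population. The clusters did not separate in this way for PHLDA1. In cluster 13 it reached 5.30 CPM in resistant coculture and 2.58 CPM in resistant monoculture. Its lowest sensitive monoculture value was 2.28 CPM, in cluster 7. DUSP4 ran inside the sensitive monoculture from 14.7 CPM in cluster 3 to 35.1 CPM in cluster 8 and 31.9 CPM in cluster 12, both almost wholly of G1 cells (99.7% and 99.4%). SPRED2 was also highest in cluster 8, at 13.4 CPM, and lowest in cluster 3, at 5.70 CPM. In the resistant lineage DUSP4 was low in clusters 6 and 10, from 6.61 to 6.91 CPM over both cultures, and reached 21.0 CPM in the coculture cells of cluster 3. That cluster also held cocultured sensitive cells, in which DUSP4 was 19.8 CPM.

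Clusters that held at least 50 cells of both sensitive populations allowed a comparison between cells that the authors had grouped together. In cluster 3 (267 monoculture and 1087 coculture cells) DUSP6 was 3.92 CPM in monoculture and 1.89 CPM in coculture, 2.07-fold lower (1.33 to 3.18), and in cluster 7 (232 and 617 cells, nearly all outside G1) it was 3.98 and 1.57 CPM, 2.55-fold lower (1.55 to 4.17). DUSP5 was 1.85-fold lower in cluster 3 (1.45 to 2.35) and 1.61-fold lower in cluster 7 (1.28 to 2.03). In cluster 4, with 84 coculture cells against 1945, the DUSP6 and DUSP5 ratios were 0.710 (0.321 to 1.37) and 0.662 (0.407 to 1.02). SPRED2 had within-cluster ratios of 1.10 (0.803 to 1.53), 1.13 (0.732 to 1.68) and 0.835 (0.609 to 1.16) in clusters 3, 4 and 7, with intervals that held 1. Its ratio over all phases, 0.672, lay inside the interval of cluster 7 and below those of clusters 3 and 4. DUSP4 was 1.34-fold higher in the coculture cells of cluster 3 (1.11 to 1.64). In cluster 4 its ratio was 1.33, with a lower limit too near 1 to be read (1.003 to 1.73). The DUSP4 ratio was 1.05 in cluster 7 (0.877 to 1.26) and 0.972 over all phases.

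**Figure D4:**
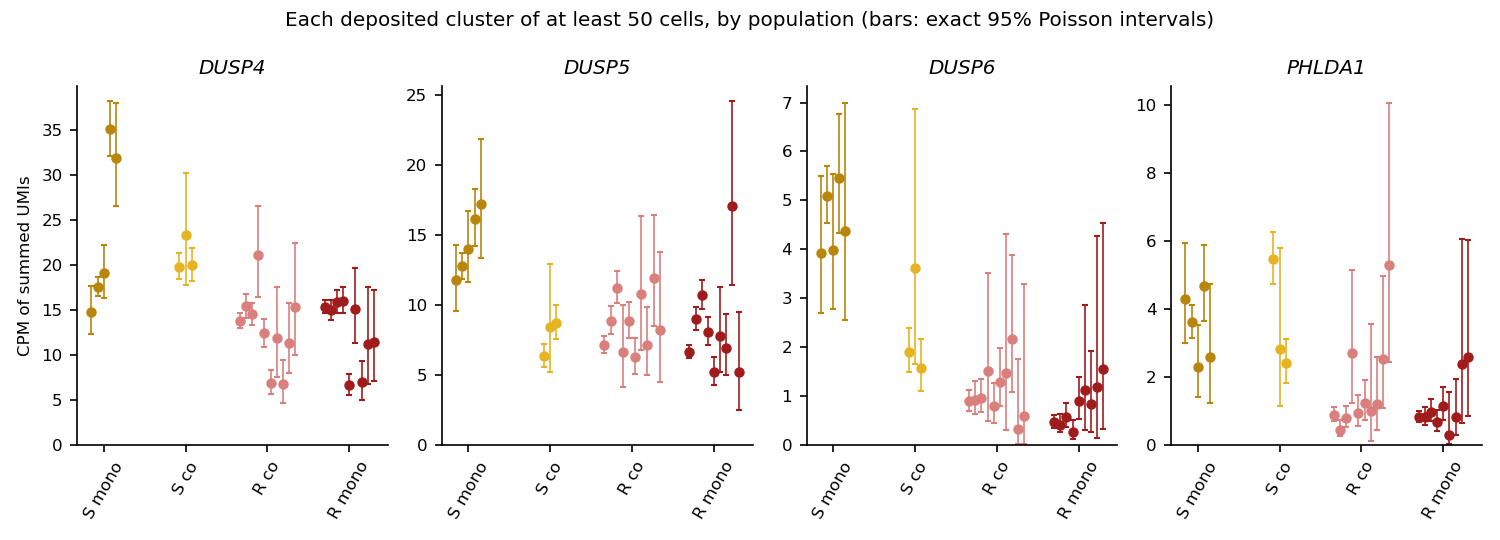
Level (vertical axis, CPM of summed UMIs) of DUSP4, DUSP5, DUSP6 and PHLDA1 in each deposited cluster of at least 50 cells of a population, all phases, ordered by cluster number within sensitive monoculture (S mono), sensitive coculture (S co), resistant coculture (R co) and resistant monoculture (R mono); bars are exact 95% Poisson intervals. The DUSP6 clusters of the sensitive monoculture (3.92 to 5.45 CPM) are points above those of all resistant clusters, while DUSP4 varies from 14.7 to 35.1 CPM inside the sensitive monoculture.

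Across the 12 sums of population by phase, the members did not share 1 profile. Pearson's r of log2(CPM + 1) with the mean of the others was taken over the 8 members with at least 50 UMIs in all. It was 0.80 for DUSP6, 0.56 for PHLDA1, 0.53 for DUSP4, 0.49 for SPRED2, 0.40 for SPRY1 and 0.38 for DUSP5. For DUSP5 with SPRY1 alone r was -0.19. SPRY4 and ETV4 are in that mean although sensitive sums held as few as 0 UMIs of each, so no r is given for them. The closest pair was DUSP4 and PHLDA1 (0.82), followed by DUSP6 and PHLDA1 (0.72). These 12 points come from 3 libraries and share their depth and cell cycle makeup, so the values are descriptions. Among the 2331 genes that averaged 50 CPM or more, the 10 whose profiles were most like the mean profile of the members were ENAH (r = 0.98), TTC3, CHMP3, MGST1, SLC38A1, TFAP2A, PAWR, MYH9, UBL3 and COMMD6 (r = 0.95). ENAH, an actin regulator, had G1 levels of 227.7 and 147.0 CPM in sensitive cells from monoculture and coculture and of 96.1 and 124.6 CPM in resistant cells, and MYH9, a nonmuscle myosin heavy chain, had 111.2 and 65.9 CPM in sensitive and 41.3 and 46.1 CPM in resistant cells.

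The other MAP kinase phosphatases, a list of 7 genes, were measured in the same G1 cells. Between monocultures 5 of the 7 were at least 1.5-fold lower in resistant cells and 0 were higher, with a median of -0.76, beside 13.2% and 5.55% of all genes. In sensitive cells 3 of 7 were lower in coculture, with a median of -0.52, beside 5.07% of all genes. In resistant cells 0 differed, beside 0.817% of all genes higher and 0.0481% lower, so this count tells little about the list. Within coculture 2 were lower and 1 higher in resistant cells, with a median of -0.20, beside 4.67% and 2.50%. DUSP1, an inducible nuclear phosphatase that acts on JNK and p38 as well as ERK, stood at 137.3 CPM in the sensitive monoculture, 76.6 CPM in cocultured sensitive cells, 95.02 CPM in cocultured resistant cells and 84.0 CPM in the resistant monoculture. DUSP2 stood at 68.7, 25.6, 44.9 and 33.3 CPM, 2.69-fold lower in cocultured sensitive cells (2.51 to 2.89). DUSP1 and DUSP2 were thus lowest in sensitive coculture, while DUSP8, a phosphatase of JNK and p38, had its values in the order of DUSP6 at 33.3, 23.5, 20.2 and 19.2 CPM, although its ratio between the resistant cultures was 1.05 with an interval of 0.986 to 1.11. DUSP10 and DUSP16, also phosphatases of JNK and p38 and named here after their values were seen, gave that order too, from 4.92 to 1.37 CPM and from 11.4 to 3.77 CPM, although the 2 resistant levels of DUSP10 (1.40 and 1.37 CPM) lay within each other's intervals.

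**Figure D5:**
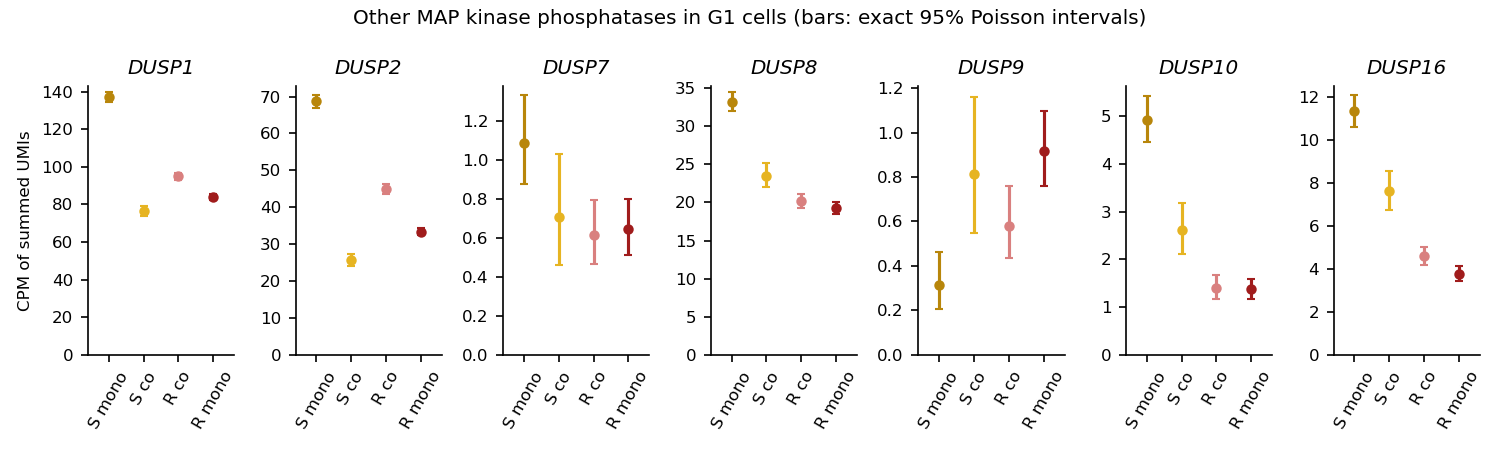
Level (vertical axis, CPM of summed UMIs, a scale of its own per gene) of the 7 other MAP kinase phosphatases in G1 cells of sensitive monoculture (S mono), sensitive coculture (S co), resistant coculture (R co) and resistant monoculture (R mono); bars are exact 95% Poisson intervals. The sensitive monoculture is the highest population for DUSP1, DUSP2, DUSP7, DUSP8, DUSP10 and DUSP16, although its DUSP7 interval (0.875 to 1.34 CPM) overlaps that of cocultured sensitive cells (0.461 to 1.03 CPM). It is the lowest for DUSP9, although its interval (0.205 to 0.461 CPM) overlaps that of cocultured resistant cells (0.437 to 0.758 CPM).

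Of 16 other genes known as ERK outputs, 8 could be compared between monocultures in G1 cells, of which 2 were lower and 0 higher (median -0.22), and 7 in sensitive cells between cultures, of which 1 was lower and 0 higher (median -0.24). The shares of all genes that were lower in these comparisons were 13.2% and 5.07%. Within coculture 0 of 7 were lower or higher in resistant cells (median -0.07), beside 4.67% and 2.50% of all genes. Between the resistant cultures 0 of 8 were lower or higher (median -0.01), beside 0.0481% and 0.817%. The called genes, named here after their values were seen, were HBEGF and EPHA2 between monocultures and PLAUR in sensitive cells. HBEGF, a ligand of the EGF receptor, stood at 5.33 CPM in the sensitive and 2.49 CPM in the resistant monoculture, and EPHA2, an ephrin receptor, at 2.09 and 0.909 CPM. PLAUR, the urokinase receptor, was 7.57 CPM in the sensitive monoculture and 4.50 CPM in cocultured sensitive cells. CCND1, which encodes cyclin D1, stood between 1532 and 1811 CPM in all 4 populations. MYC was 80.0 CPM in the sensitive monoculture, 67.8 CPM in cocultured sensitive cells, 59.8 CPM in cocultured resistant cells and 53.4 CPM in the resistant monoculture, the same order as DUSP6 over a smaller range. IER3, an immediate early gene, ran the other way between monocultures, at 1193 CPM in sensitive and 1642 CPM in resistant cells.

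A list of 14 genes that dissociation of tissue is known to raise was compared because the spheroids had been dissociated and frozen before capture. It holds immediate early genes, which ERK also induces, and the heat shock genes HSPA1A, HSPA1B and DNAJB1. Between monocultures in G1 cells 3 of the 14 were lower in resistant cells (ATF3, BTG2 and HSPA1B) and 1 was higher (FOSB), with a median of -0.19, beside 13.2% of all genes lower and 5.55% higher. Within coculture 3 were higher in resistant cells (FOS, EGR1 and JUNB) and 0 lower, with a median of 0.04, beside 2.50% and 4.67%. In sensitive cells 3 were lower in coculture (JUNB, ZFP36 and HSPA1A) and 0 higher, with a median of -0.20, beside 5.07% and 3.81%, and JUNB went from 147.5 to 83.3 CPM. In resistant cells 1 was higher in coculture (ATF3) and 0 lower, with a median of 0.12, beside 0.817% and 0.0481%. ATF3 and ZFP36 are named here after their values were seen, and reads of HSPA1A and HSPA1B, which are near-identical copies, may have been split between them. FOS was 72.0 CPM in the sensitive monoculture, 64.6 CPM in cocultured sensitive cells, 100.2 CPM in cocultured resistant cells and 73.5 CPM in the resistant monoculture, and EGR1 was 10.5, 12.8, 20.9 and 15.4 CPM. FOS and EGR1 were thus highest in resistant coculture. The part of dissociation in the members' levels was not tested.

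Of 20 genes of the cascade itself, from SHC1 to MAPK3, 2 were lower and 1 higher in resistant than in sensitive monoculture G1 cells (median -0.23), beside 13.2% and 5.55% of all genes. Between cultures 0 differed by 1.5-fold in sensitive cells (median -0.07), beside 5.07% lower and 3.81% higher. In resistant cells 0 differed (median 0.13), beside 0.0481% and 0.817%. Between lineages in coculture 0 differed (median 0.04), beside 4.67% and 2.50%. Of 12 receptor tyrosine kinases, 10 could be compared, and 2 were higher and 2 lower in resistant than in sensitive monoculture (median 0.05), beside the same 5.55% higher and 13.2% lower. Within coculture 2 of 10 were higher and 1 lower in resistant cells (median 0.26), beside 2.50% and 4.67%. FGFR4, a receptor for fibroblast growth factors, was 49.1 and 29.7 CPM in sensitive cells from monoculture and coculture and 70.8 and 76.9 CPM in resistant cells from coculture and monoculture, 2.39-fold higher in resistant than in sensitive cells within coculture (2.24 to 2.55), and FGFR1 was 21.0, 18.1, 9.42 and 8.39 CPM in that order. ERBB2 stood between 37.8 and 51.0 CPM.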

How the data were processed

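Single-cell RNA was captured with 10X Genomics 3′ v3 chemistry in 3 libraries, 1 per condition. The authors aligned the reads to GRCh37 and counted UMIs with Cell Ranger 3.0.2, per the submitters' processing notes, and deposited counts per gene and barcode without normalization. For the cells they kept they also deposited UMI totals as counts, the mitochondrial percent, and S and G2M scores with phases and clusters made in Seurat. Sample names of this annotation were matched to libraries by name, and 10 of its columns were not used.

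UMIs were summed over annotated cells by population and phase. Rows that named no gene held between 0.523% and 0.591% of UMIs and did not enter; totals then differed from the deposited ones by at most 6 UMIs per cell. The libraries held 173405094, 519475237 and 359599734 UMIs on named genes (sensitive monoculture, coculture, resistant monoculture). Sums carry exact Poisson intervals, ratios conditional exact binomial intervals and shares Clopper-Pearson intervals, all at 95% and for counting error only; a count of 0 was given a limit of 3 counts. Log2 ratios used a pseudocount of 1 CPM and genes with at least 50 UMIs, and were tested on simulated data. The study's methods state that doublets predicted with Scrublet had been removed from the cells it kept, and none were removed here; leaving out the 5% of cells with the most UMIs was an alternative. TMM factors came from edgeR 4.0.16 (R 4.3.3), as scaling only. Python 3.11.15, numpy 2.4.6, pandas 2.3.3, scipy 1.17.1 and matplotlib 3.10.9 were used. Gene positions were read from the GRCh37 lift of GENCODE 44, which is newer than the annotation counted on, and promoters from RefSeq.

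The members, the other lists and the alternatives were chosen with earlier results of these data known. All 10 members are named, with the 3 genes of each other list that had the largest absolute log2 ratio in G1 cells of a comparison among those of at least 10 CPM, from which a selection is printed, and the 10 genes most like the members. The total without mitochondrial UMIs was an alternative added after seeing the data. Values of some single genes of the cascade are not reported here.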

Additional observations from a re-analysis of the deposited data

Results flagged for a closer look

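In G1 cells, 3 members stood lower in coculture than in monoculture in the sensitive lineage and higher in the resistant lineage, each with a counting interval that left out a ratio of 1. The sensitive minus resistant difference of their log2 ratios was -1.02 for DUSP5, -1.32 for DUSP6 and -0.59 for SPRED2. The difference itself was not tested, since each condition is 1 library. Both cocultured populations came from the same library. RNA of resistant cells was removed from the sensitive coculture as an alternative, but RNA of sensitive cells was not removed from the resistant coculture. The part of RNA shared within that library in the rise of the resistant cells was therefore not tested. The rise in resistant cells was small for DUSP5 and SPRED2, whose ratios stood above those of 72.4% and 78.1% of genes, and in cells under 15% mitochondrial share that of DUSP5 went from 0.15 to 0.012 in log2. Their intervals in resistant cells had lower limits of 1.02 and 1.05. TMM scaling shifted every plain ratio of that comparison by -0.068 in log2. This takes the lower limit of DUSP5 below 1 and leaves that of SPRED2 too near 1 to be read. Inside clusters the sensitive ratios of DUSP5 and DUSP6 lay below 1 in clusters 3 and 7 with intervals that left out 1, and had intervals that held 1 in cluster 4, while those of SPRED2 held 1 in all 3 clusters.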

How the results depend on the processing

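With 1 library per condition the values rest on single cultures, and members under 50 UMIs (SPRY2 and SPRED1 in each comparison, ETV4 in most, SPRY4 in sensitive cells) could not be placed. No paired analysis was possible because each condition has 1 library and no test was run. Of 55 member ratios, 47 kept their sign under every alternative run, among them all 18 past 1.5-fold. A change of pseudocount or of UMI minimum cannot turn a sign, so part of this count was fixed by construction. The count does not show whether a ratio stayed past 1.5-fold, and some of the 18 did not. The 18 include the G1 ratio of SPRY4 within coculture, from which nothing is read. Where no cause is named below, the cause was not tested.

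Comparisons are named in brief here, with sensitive cells meaning coculture over monoculture, resistant cells the same, monocultures meaning resistant over sensitive, and lineages in coculture meaning resistant over sensitive, all phases together unless G1 is named. With a pseudocount of 10 CPM, which shrinks all ratios by construction, the medians over all phases were -0.18 in sensitive cells, 0.045 in resistant cells and -0.33 between monocultures, and in G1 cells -0.13, 0.063 and -0.35, and the members lower or higher dropped to 0 in all phases and in G1. With 0.1 CPM the G1 median between monocultures was -0.91, and the members higher were 3 (all phases) and 2 (G1) in resistant cells and 1 between lineages in coculture, with 3 lower. With no UMI minimum, which brings in the sparse members, the medians were -0.070 in sensitive cells, 0.077 in resistant cells and -0.48 between monocultures over all phases, and -0.12 in sensitive G1 cells. With at least 200 UMIs the median between lineages in coculture was -0.25, and 0 members were higher in G1, since fewer were compared. TMM scaling gave medians of 0.089 in resistant cells and -0.62 between monocultures. Under 15% mitochondrial share the median between monocultures was -0.38 with 2 members lower, the lineages in coculture had 2 lower and a G1 median of -0.27, and 0 members were higher in resistant G1 cells. Requiring 2 transgene UMIs gave a G1 median of -0.90 between monocultures and 2 members lower between lineages in coculture. In that last comparison over all phases, 3 were lower without the top 5% of cells, with the mean of per-cell CPM, with 10% resistant RNA removed (1 higher) and with totals without mitochondrial UMIs. The 1 higher member in this comparison, here and with 0.1 CPM, was SPRY4, from which nothing is read.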
